A study of Mus musculus with 13 samples.

Results

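Cell cycle and DNA replication genes were followed through the midbrains of mice that had received MPTP, a toxin that kills dopaminergic neurons, or saline. The set holds 46 genes of the 49315 genes in each count table. It was listed by gene name, with earlier results of these data known. They fall into 8 G1 cyclins and kinases, 4 inhibitors of cyclin-dependent kinases (CDKs), 5 genes of E2F factors and Uhrf1, 8 replication licensing genes, 4 genes of the replication clamp and nucleotide synthesis, 10 mitotic cyclins, kinases and regulators, and 7 chromosome and spindle proteins. Of the 46 genes, 43 had at least 10 counts in at least 3 libraries and could be tested, while Ccnb1, Aurkb and Bub1 could not.

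A resting cell enters the cycle when D-type cyclins with CDK4 and CDK6 inactivate the retinoblastoma protein and free E2F factors, which switch on the genes of DNA synthesis. The MCM helicase is loaded onto origins before S phase, and cyclin B with CDK1 then drives mitosis. CDK inhibitors such as p21, p27 and p57 hold cells outside the cycle, and p21 is also a classical target of p53 and of stress signals. Most cells of the adult midbrain do not divide, and the dividing cells are mainly oligodendrocyte precursors and microglia.

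Midbrain RNA came from 13 male mice on a C57BL/6J background, aged 8 to 12 weeks, and each library was a separate animal. All of them carried the floxed Ripk3fl/fl genotype and were given tamoxifen (60 mg/kg) for 5 days at least a week before the toxin. Cre+ mice (Aldh1l1Cre+) also carried a tamoxifen-inducible recombinase under the astrocyte promoter Aldh1l1, so that Ripk3, a kinase of inflammatory signalling, is meant to be lost from astrocytes and kept in other cells, while Cre- mice lacked the recombinase. MPTP (20 mg/kg) or saline was injected once a day for 5 days, and tissue was taken 3 days after the last dose. The groups were Cre- Saline, Cre+ Saline and Cre- MPTP (n = 3 each) and Cre+ MPTP (n = 4).

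The libraries held 11489150 to 29397278 counts in genes. Replicate 1 of Cre- MPTP, the shallowest library, stood apart among the cell cycle genes, since it was the highest of all 13 libraries for 14 of the 46 genes and the lowest for 13, against 0 to 8 highest and 1 to 7 lowest in the other libraries. It had 0 counts of Mki67, Top2a, Cenpf and E2f2. It also stood apart over all genes: the chi-square per degree of freedom of its counts against the other mice of its group was 397.5 and 397.6, against 7.95 to 53.2 for all other pairs within a group. Its 7 astrocyte markers summed to 2186 CPM (3643 to 4397 in the rest) and its 6 neuron markers to 2091 CPM (3321 to 3963). Main results that change without it are given with and without it. Ripk3 had 4 to 40 counts in Cre- and 4 to 19 in Cre+ libraries, too few to check the genotype of single mice. Dopaminergic neuron markers, 6 genes, were present in every library and summed to 243 to 355 CPM, that is, counts scaled to library size with edgeR's TMM factors, the unit of all levels below. Fold changes, standard errors (SE) and adjusted p-values come from edgeR's quasi-likelihood test over all 19360 genes tested. In bulk tissue, fewer cells of a type and less RNA per cell cannot be told apart.

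With saline the 46 genes spanned a wide range of levels. Per kilobase of transcript in the Cre- Saline libraries, the highest mean levels were those of Pcna, the replication clamp that also serves DNA repair (18.7 CPM per kb), Cdk4, the G1 kinase (13.2), and Cdkn1b, the inhibitor p27 (12.9). Ccnd1, cyclin D1, stood at 6.44 CPM per kb. The lowest were the mitotic genes Ccnb1, cyclin B1 (0.0428), Aurkb, the kinase of the chromosome passenger complex (0.0384), and Bub1, a spindle checkpoint kinase (0.0236), with E2f7, an atypical repressor E2F (0.0221). These last genes lay near the floor of detection. Ccnb1 had 8, 2 and 4 counts in Cre- Saline, 14, 1 and 9 in Cre+ Saline, 0, 8 and 3 in Cre- MPTP and 5, 6, 8 and 2 in Cre+ MPTP libraries. Bub1 ranged from 0 to 11 counts and Aurkb from 1 to 13 counts over all libraries. No order of the groups can be read at these counts.

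**Figure D1:**
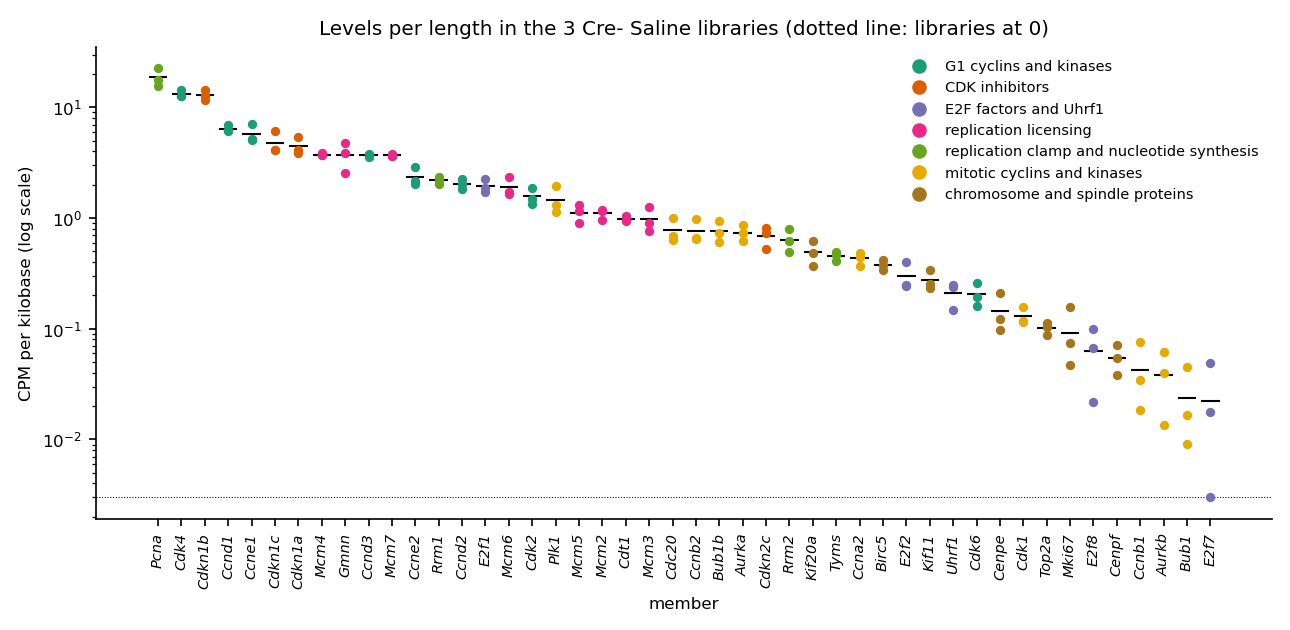
Level of each of the 46 genes in the 3 Cre- Saline libraries, in CPM per kilobase of transcript on a log axis, ordered by mean (bar) and coloured by role, with each point a library and the dotted line marking a library at 0. Pcna, Cdk4 and Cdkn1b lie highest, at 12.9 to 18.7 CPM per kb on average, and Aurkb, Bub1 and E2f7 lowest, at 0.0384, 0.0236 and 0.0221.

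With MPTP in Cre- mice, 2 of the 43 tested genes passed an adjusted p of 0.05 (edgeR), Cdkn1a upwards and E2f8 downwards, against 3.18% of all 19360 genes. In Cre+ mice none passed, against 0% of all genes. Between the genotypes under MPTP, Cdkn1a alone passed, downwards in Cre+ mice, against 1.54% of all genes. No member passed between the genotypes in Saline (0% of all genes) or for the interaction of genotype and MPTP (0.0103% of all genes). For MPTP in Cre+ mice, DESeq2 on the groups compared called 2 members higher, and limma voom 3 higher and 1 lower. For the interaction, DESeq2 over all libraries called 1 member lower, Cdkn1a, and limma voom 2 higher and 1 lower. Between the genotypes in Saline 0 members were called by either of these tools. At an unadjusted p under 0.05, DESeq2 on the groups compared gave 10 members higher and 1 lower with MPTP in Cre+ mice, against 5.26% and 3.62% of all genes. Limma voom gave 9 and 1 there, against 7.18% and 6.18%. For the interaction voom gave 5 and 4, against 8.03% and 7.59%, and DESeq2 over all libraries 2 and 1, against 3.08% and 4.39%. Shares of all genes at the adjusted p are not given for these tools.

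Counted at an unadjusted p under 0.05, 4 members were higher and 2 lower with MPTP in Cre- mice, against 9.25% and 5.72% of all genes. With MPTP in Cre+ mice 5 were higher and 0 lower, against 2.7% and 0.77%. Cre+ against Cre- mice under MPTP gave 5 higher and 3 lower, against 5.27% and 13.8%. In Saline, 0 members were higher and 0 lower in Cre+ mice, against 0.465% and 0.444%. The interaction gave 2 higher and 1 lower, against 2.54% and 3.22%. The median log2 fold change of the 43 members was 0.10 with MPTP in Cre- mice, where that of all genes was 0.03. It was 0.22 in Cre+ mice, where that of all genes was 0.00. A positive value was found there for 33 of the 43 members, against 9852 of all 19360 genes. Without Cre- MPTP replicate 1, 3 members were higher and 7 lower with MPTP in Cre- mice, against 11.8% and 12.6% of all genes in that fit, and the median was -0.08. In the same fit 11 members were higher and 1 lower with MPTP in Cre+ mice, against 5.5% and 3.33%. Between the genotypes under MPTP 6 were higher and 1 lower, against 6.13% in each direction. The interaction then gave 6 higher and 2 lower, against 6.47% and 5.92%. Its median was 0.30, where it was 0.18 over all libraries.

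**Figure D2:**
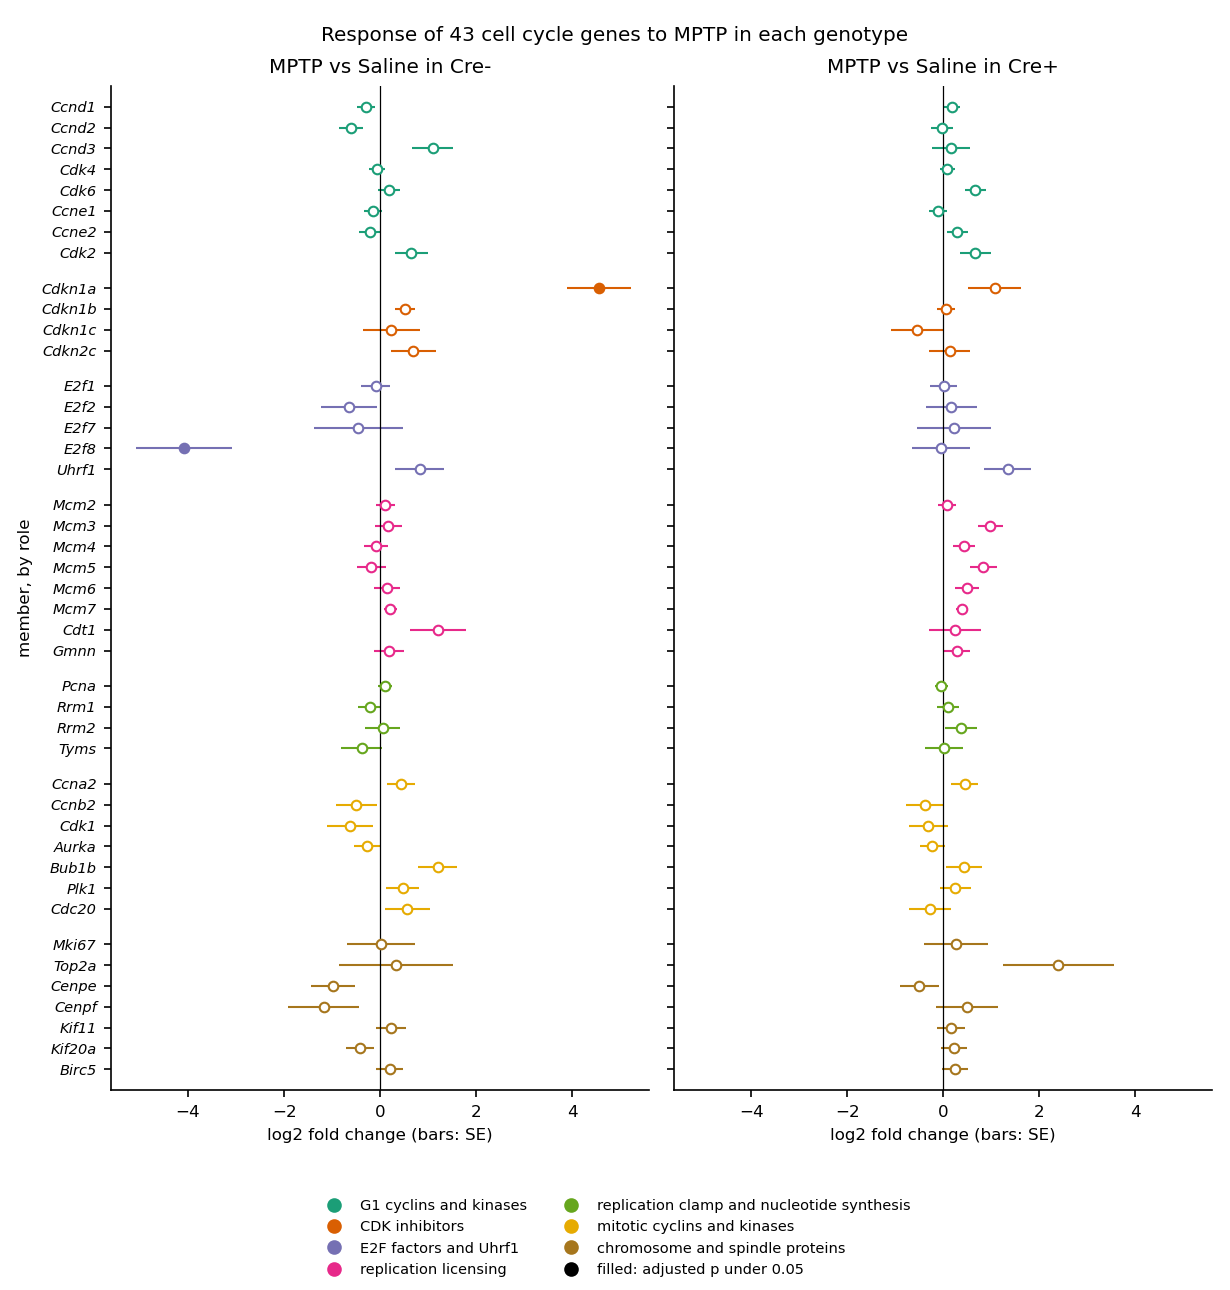
Log2 fold change of MPTP against Saline for the 43 tested genes in Cre- mice (left) and Cre+ mice (right), grouped and coloured by role, with bars of the SE and filled points for an adjusted p under 0.05. Cdkn1a at 4.56 and E2f8 at -4.08 in Cre- mice are the 2 filled points, and no point is filled in Cre+ mice.

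Cdkn1a, which encodes the CDK inhibitor p21 (ENSMUSG00000023067, chromosome 17, 29090979 to 29100722, GRCm38), made the largest rise of the set. It stood at 9.16, 8.58 and 12.001 CPM in Cre- Saline and 11.07, 15.04 and 13.69 CPM in Cre+ Saline libraries. With MPTP it stood at 361, 198 and 143 CPM in Cre- mice and at 14.8, 68.8, 11.0 and 17.4 CPM in Cre+ mice. Every Cre- MPTP library lay above every other library, and Cre+ MPTP replicate 2 lay apart from the rest of its group. In Cre- mice Cdkn1a rose with MPTP by 4.56 on the log2 scale (SE 0.664, adjusted p = 0.00257, edgeR), from a mean of 9.91 ± 1.83 to 234 ± 113 CPM (SD, n = 3 each). It rose by 4.10 without Cre- MPTP replicate 1 (adjusted p = 0.000707). Under MPTP it was lower in Cre+ than in Cre- mice, with a log2 fold change of -3.06 (SE 0.554, adjusted p = 0.0196, edgeR) and a Cre+ mean of 28.0 ± 27.3 CPM (SD, n = 4).

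The genotype difference of Cdkn1a under MPTP was -4.00 without Cre+ MPTP replicate 2 (adjusted p = 0.000226). Leaving out replicate 1, 3 or 4 of Cre+ MPTP ended the call, with log2 fold changes of -2.79 to -2.88 and adjusted p-values of 0.0606 to 0.0710, and so did fitting the compared groups alone (adjusted p = 0.289, edgeR). The interaction, which tests the difference between the responses of the genotypes, was -3.48 (SE 0.805, adjusted p = 0.201, edgeR) and did not pass. It was -4.43 without Cre+ MPTP replicate 2 (adjusted p = 0.00256). In Cre+ mice the response to MPTP did not pass, and the group means were 13.3 ± 2.02 and 28.0 ± 27.3 CPM.

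Other lists also differed between Cre- MPTP and the other groups. A list of 10 glucocorticoid-induced genes (Fkbp5, Tsc22d3 and others) summed to 291 to 479 CPM in Cre- Saline, 402 to 407 in Cre+ Saline, 1153 to 2037 in Cre- MPTP and 349 to 579 in Cre+ MPTP libraries. In Cre- MPTP replicates 1, 2 and 3 the sum was 2037, 1153 and 1199.6 CPM, and the highest sum among Cre+ MPTP mice was that of replicate 2. The excess of Cre- MPTP replicate 1 came from 2 genes of the list. Ddit4 stood at 750, 155 and 181 CPM in replicates 1, 2 and 3 of that group, and Arrdc2 at 344, 71.9 and 90.8 CPM. With MPTP in Cre- mice 7 of these 10 genes passed the test upwards, against 431 of all 19360 genes. This list was chosen with earlier results of these data known. Of the 7 neutrophil markers, 5 could be tested and 4 passed the test upwards with MPTP in Cre- mice, against 431 of all 19360 genes. The count filter may have been met only through Cre- MPTP, where these markers were high. The 7 markers summed to 0.119 to 1.13 CPM in Cre- Saline, 0.325 to 3.23 in Cre+ Saline, 10.4 to 64.2 in Cre- MPTP and 0.572 to 3.91 in Cre+ MPTP libraries. By replicate of Cre- MPTP, in order, these markers reached 14.9, 10.4 and 64.2 CPM, and replicate 3, highest for these markers, was the lowest of its group for Cdkn1a. Among them Ly6g, a defining marker, had 0 counts in Cre- MPTP replicates 1 and 2 and 3 counts in replicate 3. The part of either list in the Cdkn1a result was not tested.

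The 3 remaining inhibitors did not pass. Cdkn1b (p27) stood at 65.2, 57.3 and 53.6 CPM in Cre- Saline, 120, 68.1 and 64.9 in Cre- MPTP, and 52.4 to 63.5 in the 7 Cre+ libraries. Cdkn1c (p57) stood at 8.48, 8.43 and 12.4 CPM in Cre- Saline, 27.5, 4.04 and 3.99 in Cre- MPTP, 10.5, 8.49 and 11.0 in Cre+ Saline, and 4.87, 7.88, 6.91 and 7.93 in Cre+ MPTP. Cdkn2c (p18) lay between 1.37 and 2.91 CPM in every library but Cre- MPTP replicate 1, at 5.85. Replicate 1 of Cre- MPTP was thus the highest library for all 4 inhibitors. Cdkn1c, chosen for mention after its values were seen, lay below the Saline range in the other 2 Cre- MPTP libraries and in all 4 Cre+ MPTP libraries. With MPTP in Cre- mice its log2 fold change was 0.24 over all libraries (SE 0.589, adjusted p = 0.870, edgeR) and turned to -1.28 without Cre- MPTP replicate 1 (adjusted p = 0.00438). Cdkn1c overlaps Gm44732, and the strand setting of the counting was not given in the sources used here.

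**Figure D3:**
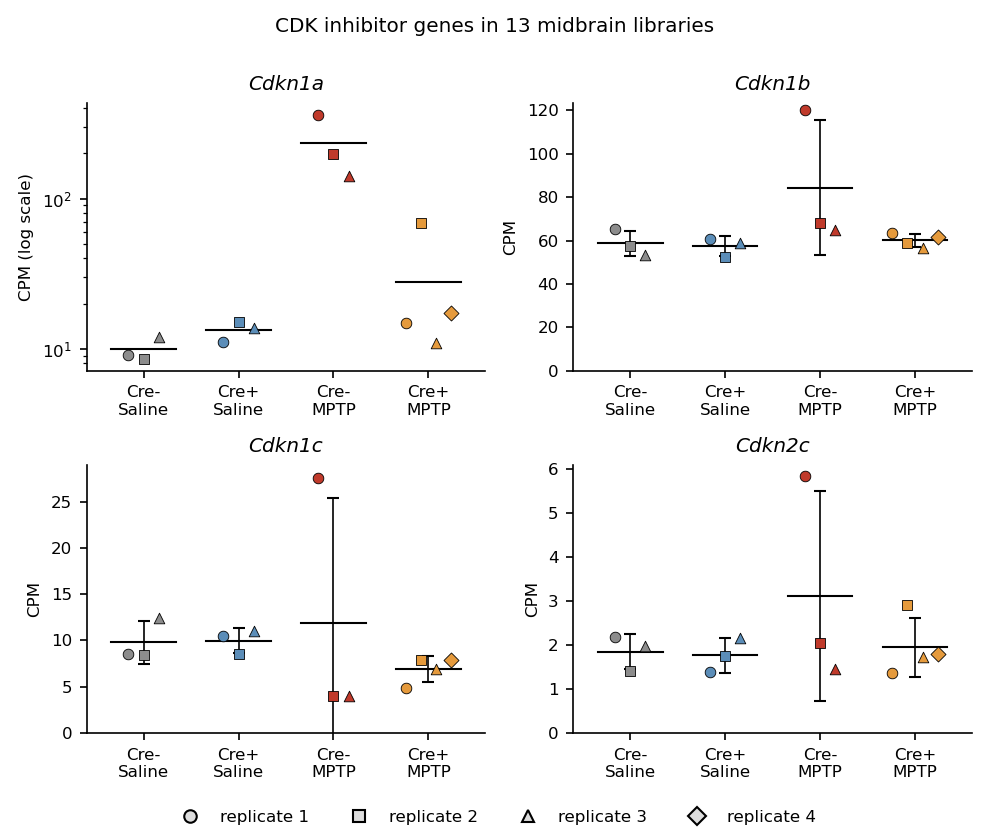
CPM of the 4 CDK inhibitor genes in each of the 13 libraries by group (marker shape gives the replicate), with the group mean as a line and bars of the SD, cut at 0, except for Cdkn1a, which is on a log axis without bars. Cdkn1a in Cre- MPTP (143 to 361 CPM) lies above all other libraries, and replicate 1 of that group is the highest library in all 4 panels.

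Among the G1 genes, which start the cycle, none passed in any comparison with edgeR over all libraries. Ccnd1 (cyclin D1; ENSMUSG00000070348, chromosome 7, 144929931 to 144939925, overlapping LTO1 on the opposite strand) stood at 28.5, 29.5 and 32.9 CPM in Cre- Saline and 30.9, 29.1 and 33.0 in Cre+ Saline. With MPTP it stood at 33.8, 20.6 and 20.4 CPM in Cre- and 36.5, 33.5, 36.8 and 33.4 CPM in Cre+ libraries. Replicates 2 and 3 of Cre- MPTP were the lowest of all libraries, and all 4 Cre+ MPTP libraries lay above the 6 Saline libraries. Between the genotypes under MPTP Ccnd1 gave 0.50 on the log2 scale (SE 0.172, adjusted p = 0.192, edgeR). It was 0.77 without Cre- MPTP replicate 1 (adjusted p = 0.000691), and the response to MPTP in Cre- mice was then -0.56 (adjusted p = 0.00211). The interaction for Ccnd1 without that library was 0.74 (adjusted p = 0.0191). Limma voom over all libraries gave 0.79 between the genotypes under MPTP (adjusted p = 1.8e-05), -0.55 with MPTP in Cre- mice (adjusted p = 0.000462) and 0.74 for the interaction (adjusted p = 0.00147).

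Ccnd2 and Ccnd3, the other D-type cyclins, did not pass. Ccnd2 stood at 7.47, 16.5 and 13.5 CPM in Cre- MPTP, the 3 lowest of the 13 libraries, against 17.3 to 21.3 CPM in Saline and 16.7 to 25.8 CPM in Cre+ MPTP. Ccnd3 was at 140.0 CPM in Cre- MPTP replicate 1, against 26.2 to 36.7 CPM in the other 12 libraries. Cdk6, the partner of D-type cyclins, stood at 2.09, 2.40 and 2.70 CPM in Cre+ Saline and 3.29, 4.47, 3.46 and 4.04 CPM in Cre+ MPTP libraries, with no overlap. The difference of Cdk6, 0.67 on the log2 scale (SE 0.219), did not pass (adjusted p = 1.00, edgeR). Cdk4 lay between 33.1 and 52.7 CPM in all libraries. Between the genotypes in Saline it gave -0.19 on the log2 scale (SE 0.166, adjusted p = 1, edgeR). Ccne1 and Ccne2, the E-type cyclins of S phase entry, ranged from 11.3 to 18.7 and from 4.55 to 10.1 CPM. Cdk2, their kinase, stood between 3.25 and 4.53 CPM in the Saline libraries, 4.91 and 7.90 in Cre- MPTP, and 3.66 and 9.95 in Cre+ MPTP.

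E2f8, an atypical E2F that represses E2F targets (ENSMUSG00000046179, chromosome 7, 48866429 to 48881596, overlapping Gm2788 on the opposite strand), fell with MPTP in Cre- mice with edgeR over all libraries. It had 3, 14 and 10 counts in Cre- Saline, 8, 10 and 4 in Cre+ Saline, 0, 1 and 0 in Cre- MPTP and 9, 8, 3 and 6 in Cre+ MPTP libraries. The Cre- MPTP libraries lay below all others, at 1 count or less. E2f8 reached the 10 counts of the filter in 3 libraries, all of them Saline. It was thus tested only through groups where it was high, and its call depends on that filter. The fit gave -4.08 on the log2 scale (SE 1.00, adjusted p = 0.0461, edgeR), and -3.91 without Cre- MPTP replicate 1 (adjusted p = 0.0421). Against a floor of 3 counts per library E2f8 was at least 2.48-fold lower. The call was lost in 10 of the 14 alternatives that gave it an adjusted p, with values up to 0.115. Cre+ against Cre- mice under MPTP gave 3.80 (SE 0.996, adjusted p = 0.0960, edgeR), at least 2-fold higher against the same floor, and the interaction was 4.04 (adjusted p = 0.399).

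E2f7, its close relative, had 0 to 12 counts and E2f2, an activator E2F, 0 to 54 counts, and neither passed. E2f1, the activator best known for driving S phase genes, ranged from 4.04 to 9.42 CPM. Uhrf1, which maintains DNA methylation at replication forks, stood at 0.634, 1.01 and 1.06 CPM in Cre- Saline, 0.630, 1.10 and 0.761 in Cre+ Saline, 2.06, 0.910 and 1.91 in Cre- MPTP, and 2.18, 0.615, 2.44 and 3.16 in Cre+ MPTP. All MPTP libraries except Cre- replicate 2 and Cre+ replicate 2 lay above all Saline libraries, while Cre+ MPTP replicate 2 was the lowest of all 13. Uhrf1 did not pass in any comparison.

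The licensing genes, which load the replicative helicase, leaned upwards with MPTP in Cre+ mice. All 8 had a positive log2 fold change there, against 9852 of all 19360 genes (median 0.41, against 0.00 for all genes). At an unadjusted p under 0.05, 3 of the 8 were higher, Mcm3, Mcm5 and Mcm7, against 2.7% of all genes. None passed the adjusted threshold, as none of all 19360 genes did in this comparison. In Cre- mice 6 of 8 were positive, against 10153 of all 19360 genes. The median of the 8 was 0.16, against 0.03 for all genes, and 0 had an unadjusted p under 0.05. The 6 helicase genes Mcm2 to Mcm7 summed to 52.2 to 55.8 CPM in Cre- Saline and 46.2 to 50.2 in Cre+ Saline libraries. With MPTP they summed to 53.7 to 60.6 CPM in Cre- and 62.9 to 73.4 in Cre+ libraries, so that Cre+ MPTP did not overlap the other groups. The sum of 64.2 CPM in Cre+ MPTP replicate 2 held 23.8 CPM of Mcm4, against at most 14.7 in any other library. The lack of overlap of replicate 2 thus rests on Mcm4. Microglial markers, a list of 8 genes, summed to 245 to 276 CPM in Cre- Saline, 240 to 261 in Cre+ Saline, 172 to 237 in Cre- MPTP and 243 to 318 in Cre+ MPTP. Oligodendrocyte precursor markers, also 8, summed to 313 to 432, 366 to 392, 293 to 419 and 320 to 361 CPM in the same order. Endothelial markers, 8 genes, summed to 325 to 355, 283 to 321, 329.5 to 461 and 328 to 411 CPM in that order. With MPTP in Cre+ mice all 8 endothelial markers had a positive log2 fold change, against 9852 of all 19360 genes. At an unadjusted p under 0.05, 3 of the 8 were higher, against 2.7% of all genes. The endothelial median was 0.27, and the summed ranges of the Cre+ groups did not overlap. Pituitary markers, 4 genes, summed to 604, 20.8 and 444 CPM in Cre+ Saline replicates 1, 2 and 3. They reached at most 27.9 CPM in Cre+ MPTP, 39.2 in Cre- Saline and 81.9 in Cre- MPTP libraries. In the same Cre+ Saline replicates the helicase genes summed to 49.3, 46.2 and 50.2 CPM. With MPTP in Cre+ mice 3 of the 4 pituitary markers were lower at an unadjusted p under 0.05, against 0.77% of all genes. The part of any of these cell types or of pituitary tissue in the helicase genes was not tested.

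Mcm3 (ENSMUSG00000041859, chromosome 1, 20802968 to 20820312) stood at 2.89, 3.39 and 4.71 CPM in Cre- Saline, 3.15, 3.05 and 2.97 in Cre+ Saline, 3.14, 3.56 and 5.57 in Cre- MPTP, and 5.87, 4.81, 8.24 and 5.30 in Cre+ MPTP. All 4 Cre+ MPTP libraries lay above the 6 Saline libraries. In Cre+ mice Mcm3 gave a log2 fold change of 0.99 (SE 0.267, adjusted p = 0.616, edgeR). With DESeq2 on the groups compared the adjusted p was 0.00185, and with limma voom 0.0166. Mcm5 (ENSMUSG00000005410, chromosome 8, 75109569 to 75128439) stood at 3.66, 3.62 and 3.46 CPM in Cre+ Saline and 7.09, 3.52, 7.40 and 7.55 in Cre+ MPTP. Replicate 2 lay at the Saline level, and the others above all other libraries of the study. For Mcm5 the fold change was 0.84 on the log2 scale (SE 0.279, adjusted p = 1.00, edgeR), its adjusted p 0.0382 with DESeq2 on the groups compared, and its interaction 1.02 (SE 0.406, adjusted p = 0.760).

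Mcm7, the host of Mir106b, Mir93 and Mir25, stood at 14.5, 13.9 and 16.1 CPM in Cre+ Saline and 20.7, 16.9, 21.01 and 19.1 CPM in Cre+ MPTP. It was also above its Saline range in Cre- MPTP, at 17.3, 18.4 and 20.8 against 16.0 to 16.9 CPM. Mcm4 stood at 23.8 CPM in Cre+ MPTP replicate 2, against 9.64 to 14.7 CPM in the other 12 libraries. Mcm2 and Mcm6 ranged from 6.69 to 10.7 and from 6.95 to 13.7 CPM, and neither had an unadjusted p under 0.05 in a comparison. Cdt1, the loading factor, was at 16.1 CPM in Cre- MPTP replicate 1 and at 1.70 to 4.19 in the other libraries. Gmnn (geminin), which holds CDT1 back, was at 10.4 CPM in Cre+ MPTP replicate 4 and at 3.72 to 6.98 in the others.

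**Figure D4:**
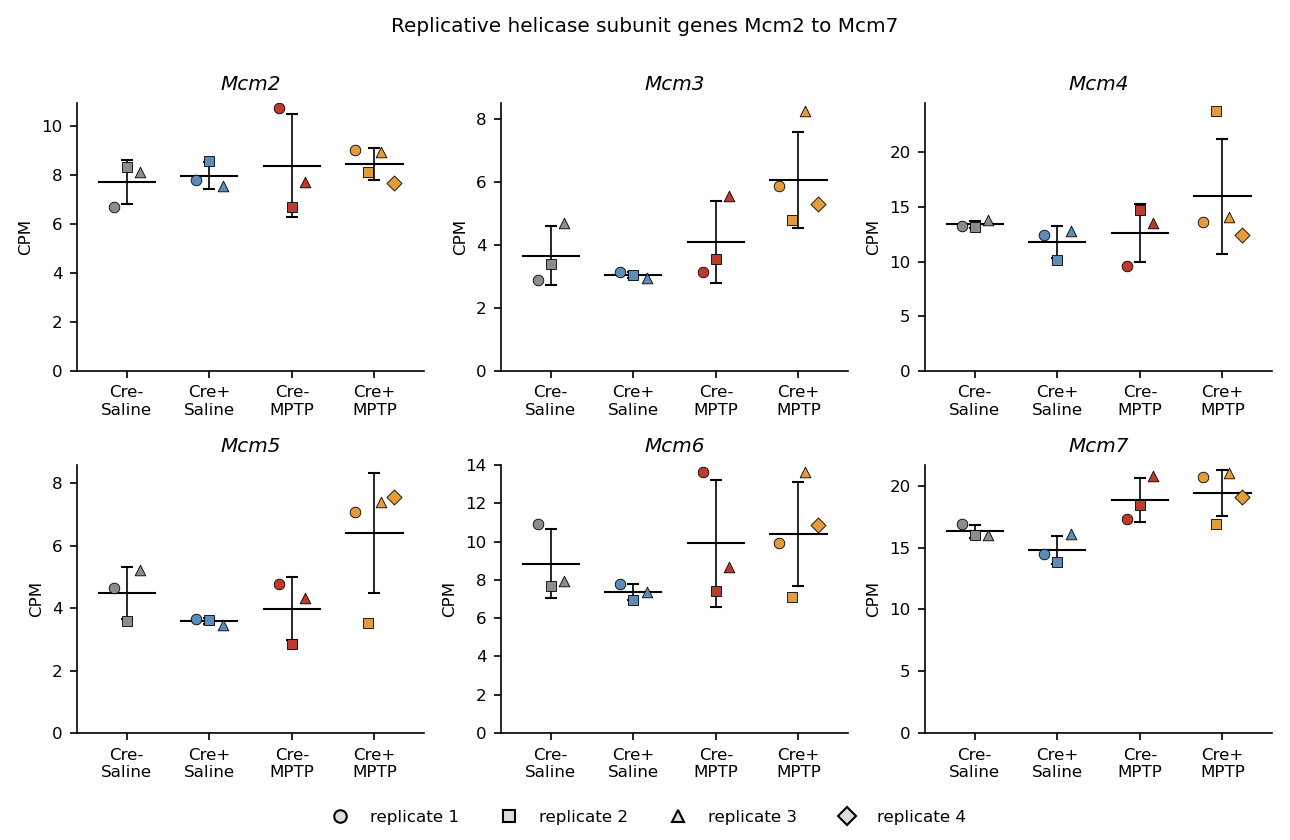
CPM of the 6 helicase genes Mcm2 to Mcm7 in each library by group, with the group mean as a line, bars of the SD and marker shape for the replicate. The Cre+ MPTP libraries of Mcm3 (4.81 to 8.24 CPM) lie above both Saline groups, and Mcm5 in Cre+ MPTP replicate 2 (3.52 CPM) and Mcm4 in the same library (23.8 CPM) stand off from their group.

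Promoter windows of 300 bases (RefSeq, GRCm38.p6) were at hand for 37 of the 46 genes, and they were searched on both strands for the E2F motif TTTCGCGC or TTTGGCGC. It was present in 8 of the 37 (21.6%) and in 0.929% of all 27025 genes with a window. Of the 6 licensing genes with a window, 5 held it (Mcm3, Mcm5, Mcm6, Mcm7 and Cdt1), and E2f2, Uhrf1 and Cdk1 held it too. The shorter CHR motif of mitotic genes, TTTGAA or TTCGAA, was present in 15 of the 37 (40.5%) and in 21.7% of all genes, and in 11 of 14 mitotic genes. These matches describe letters in a window and no binding. Mcm7 and Cdkn1a had 2 windows each. The window shown for a gene is the first with an E2F match, or the first of all where none matched. The windows of the licensing genes Mcm3, Mcm5 and Mcm7 and of Cdkn1a, the gene with the largest rise, are shown 5′ to 3′ with the E2F letters in capitals: Mcm3 at chr1:20820263-20820562, minus strand, Mcm5 at chr8:75109259-75109558, plus strand, with 2 overlapping matches on opposite strands, Mcm7 at chr5:138171834-138172133, minus strand, and Cdkn1a at chr17:29090729-29091028, plus strand, where these letters are not in the window.
Mcm3: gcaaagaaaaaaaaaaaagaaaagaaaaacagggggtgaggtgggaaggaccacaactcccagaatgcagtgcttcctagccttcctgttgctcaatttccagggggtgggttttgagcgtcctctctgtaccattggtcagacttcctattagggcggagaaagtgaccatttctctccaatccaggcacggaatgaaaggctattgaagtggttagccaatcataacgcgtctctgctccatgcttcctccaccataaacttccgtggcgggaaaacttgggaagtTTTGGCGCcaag
Mcm5: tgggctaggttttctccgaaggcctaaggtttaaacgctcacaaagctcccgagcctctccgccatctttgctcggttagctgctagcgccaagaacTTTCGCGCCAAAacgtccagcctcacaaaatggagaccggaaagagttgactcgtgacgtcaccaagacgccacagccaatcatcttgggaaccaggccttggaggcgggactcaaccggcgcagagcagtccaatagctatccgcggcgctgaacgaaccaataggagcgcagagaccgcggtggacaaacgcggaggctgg
Mcm7: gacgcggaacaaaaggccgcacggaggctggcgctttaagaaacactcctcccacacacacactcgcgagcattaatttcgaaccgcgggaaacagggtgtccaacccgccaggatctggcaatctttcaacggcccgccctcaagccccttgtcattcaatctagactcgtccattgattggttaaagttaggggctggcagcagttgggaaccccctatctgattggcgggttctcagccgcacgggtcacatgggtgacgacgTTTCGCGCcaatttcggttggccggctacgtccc
Cdkn1a: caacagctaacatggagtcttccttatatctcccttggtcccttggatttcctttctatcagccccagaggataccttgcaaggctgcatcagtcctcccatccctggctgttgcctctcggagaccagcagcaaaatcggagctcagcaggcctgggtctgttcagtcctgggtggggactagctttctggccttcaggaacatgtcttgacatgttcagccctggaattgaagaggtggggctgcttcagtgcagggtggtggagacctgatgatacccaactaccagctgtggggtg

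The genes of the replication clamp and of nucleotide synthesis did not pass in any comparison, and 0 of the 4 had an unadjusted p under 0.05. Pcna ranged from 37.8 to 53.9 CPM. Rrm1, the large subunit of ribonucleotide reductase, was at 11.3 CPM in Cre- MPTP replicate 1 and at 22.4 to 29.6 in the other 12 libraries, and its partner Rrm2 ranged from 1.27 to 2.71. Tyms (thymidylate synthase) was at 0.541 CPM in Cre- MPTP replicate 1, from 5 counts, and at 1.98 to 3.58 elsewhere.

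No mitotic gene passed in any comparison with edgeR over all libraries. Mki67, the general marker of cycling cells, had 12, 19 and 43 counts in Cre- Saline, 22, 24 and 31 in Cre+ Saline, 0, 37 and 34 in Cre- MPTP and 15, 18, 26 and 56 in Cre+ MPTP libraries, and the groups overlapped. Top2a, the topoisomerase of chromosome condensation, had 20, 24 and 28 counts in Cre- Saline, 14, 22 and 22 in Cre+ Saline, 0, 72 and 11 in Cre- MPTP and 17, 242, 21 and 33 in Cre+ MPTP. The 242 counts of Top2a were in Cre+ MPTP replicate 2, in which Mki67 had 18 counts and Cenpf 13. Cenpf, a kinetochore protein of G2 and mitosis, had 67 counts in Cre+ MPTP replicate 4 and 0 to 30 counts in the other libraries. The highest counts of Mki67 and of Cenpf were both in replicate 4 of that group. Erythroid markers, 5 genes, summed to 87.3 CPM in replicate 4 of Cre+ MPTP and to 1.39 to 15.1 CPM in the other 12 libraries, and their part in these counts was not tested.

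Bub1b, the spindle checkpoint kinase BubR1 (ENSMUSG00000040084, chromosome 2, 118598211 to 118641591), stood at 4.04, 3.12 and 2.59 CPM in Cre- Saline and 3.15, 6.54 and 4.41 CPM in Cre+ Saline. With MPTP it stood at 3.90, 7.64 and 10.6 CPM in Cre- mice and 3.47, 7.32, 7.76 and 7.01 CPM in Cre+ mice. In each MPTP group replicate 1 lay within the Saline range and the others above it. In Cre- mice Bub1b gave 1.20 on the log2 scale (SE 0.401, adjusted p = 0.178, edgeR), and without Cre- MPTP replicate 1 it was 1.49 (adjusted p = 0.0162). Bub1b was also called with DESeq2 over all libraries (1.22, adjusted p = 0.0463) and with limma voom (1.59, adjusted p = 0.00235). Between the genotypes in Saline Bub1b gave 0.53 (SE 0.399, adjusted p = 1, edgeR). Cdk1, the mitotic kinase, had 2 to 23 counts and gave 0.49 in the same comparison (SE 0.436, adjusted p = 1, edgeR).

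Some of the other mitotic genes were highest in Cre- MPTP replicate 1. Plk1, the kinase of mitotic entry, stood at 7.69 CPM in that library and at 2.44 to 4.30 in the other 12, and Cdc20, the activator of the anaphase-promoting complex, at 4.55 against 1.02 to 1.86. Ccna2, cyclin A2, stood at 1.83 to 2.32 CPM in Cre+ Saline and 2.44 to 2.96 in Cre+ MPTP, without overlap and without passing the test. Ccnb2, cyclin B2, ranged from 0.457 to 1.51 CPM and Aurka, the centrosome kinase, from 1.17 to 2.32. Cenpe, a kinetochore motor, was lowest in Cre- MPTP replicate 1, at 0.217 CPM from 2 counts, against 0.559 to 1.82 CPM in the other 12 libraries. The motor genes Kif11 and Kif20a and the survivin gene Birc5 ranged from 0.772 to 2.46 CPM. The 17 mitotic genes together summed to 19.5 to 25.5 CPM in Cre- Saline, 20.5 to 25.0 in Cre+ Saline, 26.3 to 27.7 in Cre- MPTP and 21.1 to 39.9 in Cre+ MPTP. Without Top2a the highest Cre+ MPTP sum was 28.1 CPM, and the Cre- MPTP range, 24.5 to 27.7, touched the Cre- Saline range, 18.6 to 24.5.

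**Figure D5:**
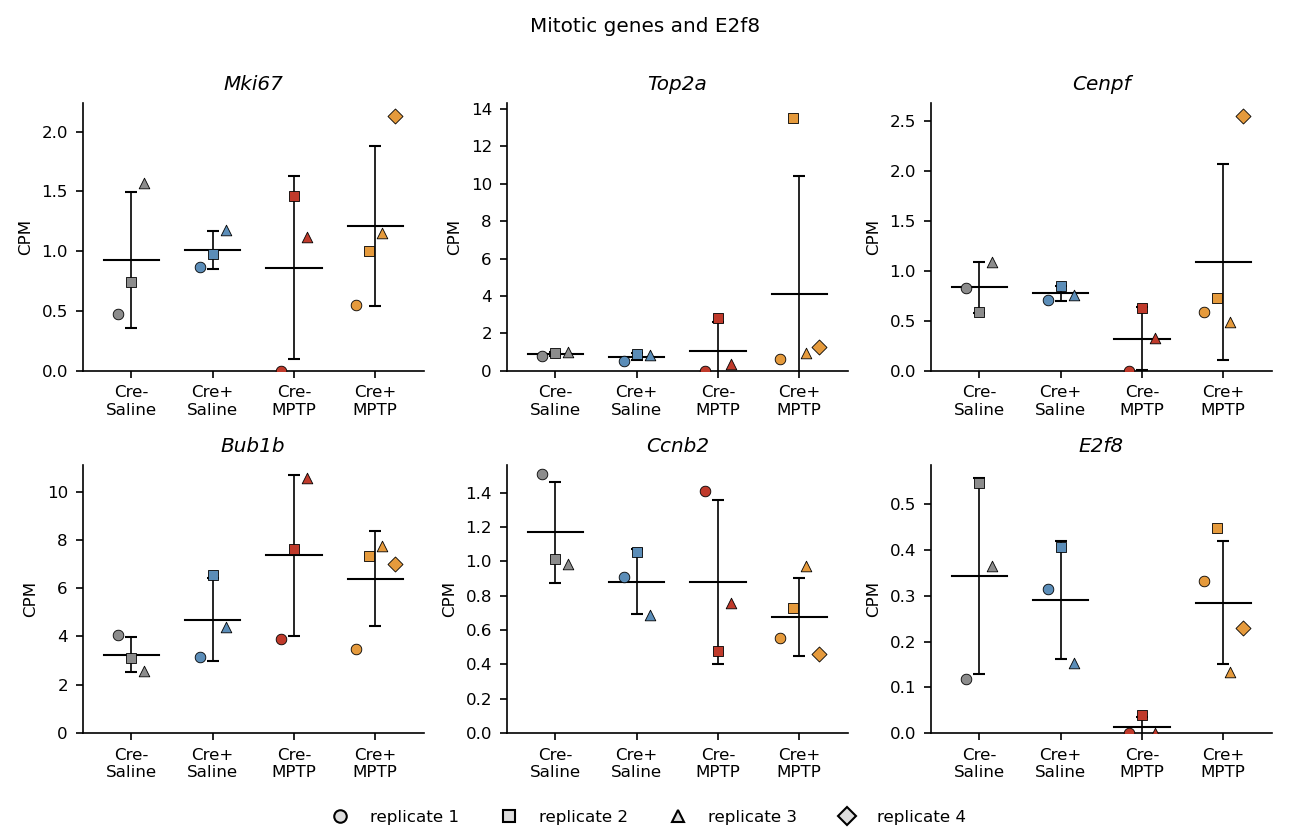
CPM of 5 mitotic genes and E2f8 in each library by group, with the group mean as a line, bars of the SD cut at 0, and marker shape for the replicate. Top2a at 13.5 CPM in Cre+ MPTP replicate 2 and Cenpf at 2.55 CPM in replicate 4 lie far from their groups, Mki67, Top2a and Cenpf are at 0 in Cre- MPTP replicate 1, and E2f8 in Cre- MPTP lies at or near 0.

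A further 134 cell cycle genes outside the set were looked at in 4 lists, and 124 of them could be tested. With MPTP in Cre- mice 1 passed, upwards: Gadd45g, a stress-induced gene of the GADD45 family. It stood at 17.2, 19.9 and 18.9 CPM in Cre- Saline and 189, 37.9 and 36.4 CPM in Cre- MPTP, and at 13.8 to 23.0 CPM in the 7 Cre+ libraries. All 3 Cre- MPTP libraries lay above every other library, replicate 1 by far. Gadd45g rose by 2.22 on the log2 scale (SE 0.523, adjusted p = 0.0372, edgeR), and under MPTP it was lower in Cre+ mice, at -2.40 (SE 0.476, adjusted p = 0.0291, edgeR). Without Cre- MPTP replicate 1 Gadd45g gave 1.00 (adjusted p = 0.00354) and -1.17 (adjusted p = 0.00227) in these comparisons, and with edgeR on the groups compared neither was called (adjusted p = 0.378 and 0.318). Leaving out any Cre- Saline mouse also ended both Gadd45g calls, with adjusted p-values of 0.136 to 0.156 for MPTP in Cre- mice and 0.0503 to 0.0506 between the genotypes. Without Cre+ MPTP replicate 1, 3 or 4 both calls were lost too, with adjusted p-values of 0.0505 to 0.0581 for MPTP and of 0.101, 0.0990 and 0.0873 between the genotypes. The MPTP call was also lost without any Cre+ Saline mouse (adjusted p = 0.0573 to 0.0595), and the genotype call without replicate 3 of that group (adjusted p = 0.05004).

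No other gene of the 4 lists passed in any comparison. The list of CDK inhibitors and p53 pathway genes, 21 of them tested, had a median of 0.41 with MPTP in Cre- mice and -0.32 between Cre+ and Cre- mice under MPTP, against 0.03 for all genes in each. Among its genes 5 were higher at an unadjusted p under 0.05 in the first comparison, against 9.25% of all genes, and 8 lower in the second, against 13.8%. Summed over the list, the 3 mice of Cre- MPTP reached 1656, 796 and 745 CPM, against 714 to 756 CPM in Saline and 678 to 775 CPM in Cre+ MPTP. Without replicate 1 of Cre- MPTP the medians were 0.11 and -0.08, where those of all genes were -0.01 and 0.01. At an unadjusted p under 0.05, 6 genes were higher and 2 lower in the first comparison, against 11.8% and 12.6% of all genes. In the second, 0 were higher and 5 lower, against 6.13% of all genes in each direction. The 36 genes of the origin complex, helicase and polymerases had medians of 0.11 with MPTP in Cre- and 0.08 in Cre+ mice. All genes had medians of 0.03 and 0.00 in these comparisons. The 40 tested checkpoint, kinetochore, condensin and spindle genes had medians of -0.12 and 0.07, and the 27 tested RB, E2F and MuvB regulators 0.12 and 0.05. Without replicate 1 of Cre- MPTP, the medians with MPTP in Cre- mice were 0.058 for the checkpoint list and 0.066 for the RB, E2F and MuvB list. The origin list then stood at 0.11. In Cre+ mice 27 of the 36 origin and polymerase genes had a positive value with MPTP, against 9852 of all 19360 genes. Of these 36 genes, 0 had an unadjusted p under 0.05.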

How the data were processed

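RNA-Seq counts of 13 midbrain libraries were used. The authors made TruSeq Stranded Total RNA libraries, and the deposited values are counts of reads per gene on GRCm38, whole numbers without normalization. The submitters' processing notes name Trimmomatic 0.36, STAR 2.5.2b and featureCounts of Subread 1.5.2, and the study tested with DESeq2 without a stated design formula. GENCODE M21 named 49056 of the 49315 genes and 259 had no match. Totals of 11489150 to 29397278 counts (median 24907639) limit genes with few counts. The lowest chi-square per degree of freedom between replicates of a group was 7.95, so no library was taken for a copy of another.

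Counts were tested with edgeR 4.0.16 (R 4.3.3): TMM, a minimum of 10 counts in 3 or more libraries (19360 genes left), 1 term per group over 13 libraries, the quasi-likelihood test, and Benjamini-Hochberg adjustment over all genes tested, called under 0.05. The SE is the absolute log2 fold change divided by the square root of F. Counts up to 3 were taken as the floor. The fits were tested on simulated data. The genes and lists were chosen with earlier results of these data known. Fold changes with their tests are printed for genes past the threshold or, where fewer than 3 passed, the 3 with the smallest p. Genes called only in an alternative are named as such, after their values were seen. Alternatives were DESeq2 1.42.0, limma 3.58.1 voom with sample quality weights, the compared groups only, DESeq2 size factors in edgeR, 2 other filters, the mouse number as a block, and each library left out.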

Additional observations from a re-analysis of the deposited data

Results flagged for a closer look

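Dixon's test was applied to the 4 libraries of Cre+ MPTP, and for 8 of the 46 genes a library lay far from the rest of its group. Chance flags about 1 in 20 groups where values are normally distributed. The test was run on these genes only, so no share over all genes stands beside the count. Replicate 2 was the highest for Cdkn1a at 68.8 CPM, Top2a at 13.5 CPM and Mcm4 at 23.8 CPM, and the lowest for Mcm5 at 3.52 CPM. Replicate 3 was the highest for E2f1 at 6.34 CPM and E2f2 at 2.13 CPM. Replicate 4 was the highest for Gmnn at 10.4 CPM and Cenpf at 2.55 CPM. Replicate 1 was the outlying library for no gene of the set. No difference between the genotypes in the response to MPTP passed an adjusted p of 0.05 for any of the 43 tested genes (edgeR), and 3 had an unadjusted p under 0.05.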

How the results depend on the processing

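Cdkn1a kept its rise with MPTP in Cre- mice in all 21 alternatives (log2 fold change 4.10 to 4.81, adjusted p up to 0.0228), and its genotype difference under MPTP kept its direction in all 21 (-4.00 to -2.62) but was not called in 5, with adjusted p up to 0.289. Cdkn1c with MPTP in Cre- mice, not called in edgeR over all libraries (0.24), turned to -1.28 without Cre- MPTP replicate 1 and -1.15 with voom, both called, and to -0.03 with the replicate block; no member called in edgeR over all libraries changed sign in the comparison that called it. Members called higher with MPTP in Cre- mice (1) were 2 with DESeq2 over all libraries and with voom (Bub1b, Cdkn1a), and 1 to 2 with a library left out. Those called lower (1, E2f8) were 0 with DESeq2 over all libraries or on the groups compared, edgeR on the groups compared, either other filter and the replicate block, 3 with voom, and 0 to 3 with a library left out, 3 (Ccnd1, Cdkn1c, E2f8) without Cre- MPTP replicate 1. DESeq2 over all libraries gave E2f8 no adjusted p. In Cre+ mice, 0 higher became 2 with DESeq2 on the groups compared (Mcm3, Mcm5) and 3 with voom (Mcm3, Mcm5, Mcm7), and 0 lower became 1 with voom (Cdkn1c). Between genotypes under MPTP, 0 higher became 3 with voom (Ccnd1, E2f8, Mcm5) and 0 to 2 with a library left out, and 1 lower became 0 with edgeR on the groups compared and with the replicate block, and 0 to 3 with a library left out, 3 (Ccnd3, Cdkn1a, Cdt1) without Cre- MPTP replicate 2 and 0 when Cre+ MPTP replicate 1, 3 or 4 was left out. For the interaction, 0 higher became 2 with voom and 0 to 1 with a library left out (Ccnd1, without Cre- MPTP replicate 1), and 0 lower became 1 with DESeq2 over all libraries and with voom and 0 to 1 with a library left out (Cdkn1a, without Cre+ MPTP replicate 2). The share of all genes called in each alternative is not set beside these counts, and the causes were not tested. Mouse numbers were not used to pair the samples, since each library was a separate animal. Same-numbered mice had correlations of -0.18 to 0.262, and over the 4 comparisons 6 of 24 library positions correlated best with their own number. This held for 4 of 6 positions for MPTP in Cre- mice, 2 of 6 between genotypes under MPTP, and 0 of 6 in each other comparison. So few mice cannot settle whether same-numbered samples were linked. With the replicate block Cdkn1a gave 4.50 with MPTP in Cre- mice and -3.12 between genotypes under MPTP (adjusted p = 0.101). Gadd45g was then called in neither comparison (adjusted p = 0.139 and 0.208).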
